A study of Mus musculus with 15 samples.

Results

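The antioxidant response was examined through 10 genes, namely 8 classic targets of the transcription factor NRF2 (Nqo1, Hmox1, Gclc, Gclm, Txnrd1, Srxn1, Slc7a11 and Gsr) together with Nfe2l2, which encodes NRF2, and Keap1, which encodes its sensor. They were taken by name from the 52526 genes in the table of each mouse, and all 10 were found. The samples were left 4th mammary tissue of female nu/nu nude mice, 1 library per mouse, from 7 mice that received BDE-47 and 8 that received vehicle. BDE-47, a polybrominated diphenyl ether flame retardant, was delivered from 8 weeks of age by osmotic pumps under the skin, which ran for 16 weeks at a daily dose of 0.03 mg/kg. Control mice carried pumps with the same vehicle, PEG300 with 1% DMSO. Mice of both groups lack a thymus through the Foxn1 nu mutation, and some carried a xenograft in the region for another experiment, which the labels do not give per mouse. Bulk RNA was read from the 3′ ends of transcripts, so that fewer cells of a type and less RNA per cell cannot be told apart.

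NRF2 is kept low in resting cells because KEAP1 holds it and presents it for ubiquitination and degradation. Electrophiles and oxidants modify cysteines of KEAP1, after which newly made NRF2 accumulates, pairs with small MAF proteins and binds antioxidant response elements near its target genes. The targets make and recycle glutathione, reduce thioredoxin and peroxiredoxins, and detoxify quinones and haem. Because NRF2 is controlled largely at the level of the protein, the mRNA of Nfe2l2 and Keap1 is a poor gauge of its activity, and the targets are the usual readout.

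The antioxidant response element has the core letters TGACNNNGC or TGAGNNNGC, and both were looked for, on both strands, in RefSeq promoter windows (GRCm38.p6) of 250 bases before to 50 after each start site. Windows were found for 7 of the 10 genes (9 windows), and Hmox1, Gclc and Gsr had none in the table used. Matches lay in windows of 5 genes (7 matches in all, for Txnrd1 in 1 of its 3 windows), and the windows of Nqo1 and Keap1 held none. Of all 32851 mouse windows of 300 bases, 12.4% held TGACNNNGC, 17.6% held TGAGNNNGC and 27.8% held at least 1 of them. The matches are shown so that the letters can be read beside the levels that follow. Each line reads 5′ to 3′ on the strand of its gene with up to 25 bases on each side, and capitals mark the match or, where it lies on the opposite strand, its complement.
Srxn1, chr2:152105341-152105399, + strand, first base at -158 from the start: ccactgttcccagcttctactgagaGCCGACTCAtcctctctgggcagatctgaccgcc
Srxn1, chr2:152105454-152105512, + strand, first base at -45: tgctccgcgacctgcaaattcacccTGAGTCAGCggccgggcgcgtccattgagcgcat
Srxn1, chr2:152105527-152105573, + strand, first base at 28: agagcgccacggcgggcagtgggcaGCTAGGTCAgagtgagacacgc
Gclm, chr3:122245398-122245456, + strand, first base at -134: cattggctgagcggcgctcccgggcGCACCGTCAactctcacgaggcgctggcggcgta
Txnrd1, chr10:82859089-82859147, + strand, first base at -92: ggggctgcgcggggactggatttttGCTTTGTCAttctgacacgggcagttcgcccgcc
Slc7a11, chr3:50443677-50443735, - strand, first base at -97: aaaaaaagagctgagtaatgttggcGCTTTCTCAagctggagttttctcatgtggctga
Nfe2l2, chr2:75704870-75704913, - strand, first base at -240: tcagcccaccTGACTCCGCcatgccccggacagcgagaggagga
Srxn1 held 3 matches and the other genes 1 each. The Srxn1 match that starts at -45 also contains TGAGTCA, the letters of an AP-1 site. A match is a description of the letters only.

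The targets showed no common direction between the groups. By the mean log2(CPM), where CPM is the read count scaled to the mapped reads of the library, 4 of the 8 targets were higher and 4 lower with BDE-47, Keap1 was higher and Nfe2l2 lower. The median difference was 0.21 on the log2 scale over the 9 genes that reached 1 CPM in 7 or more mice (0.03 with Slc7a11, which did not), against -0.02 over all 9511 genes that did, of which 49.1% were higher with BDE-47. More than 2-fold separated the group means of Nqo1 (higher, as were 13% of tested genes) and of Hmox1, Gclc and Nfe2l2 (lower, as were 13.2%). None of the 10 passed a test. In limma, with Benjamini-Hochberg adjustment over all 9511 genes, 0% of genes were called, and the 9 NRF2 genes that reached the filter had adjusted p of 0.982 to 0.999. At an unadjusted limma p under 0.05 there were 0 of these 9, against 4.66% of all tested genes, and the exact permutation test, two-sided, also gave 0 of 10.

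Values at 0 shaped these comparisons. The deposited tables list a gene at 0 when it is under 1 CPM, which here is 10.06 to 19.58 reads, the depth of the libraries being 10.06 to 19.58 M mapped reads. Of the 135 values of the 9 NRF2 genes that were tested 26 (19.3%) were listed at 0, against 20.7% for all tested genes, and Slc7a11, which did not reach the filter, added 12 of its 15 values. Where a gene was above the floor it usually stood well above it, with a median of 127 reads for Gclc and 801 reads for Keap1. Gpx4, a glutathione peroxidase that cells of most types need, was also listed at 0 in some mice, so a 0 is given here only as listed, and values are shown mouse by mouse. Keap1 alone was above the floor in all 15 mice.

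Libraries that stood apart were considered first. The 8 B cell markers were all above 1 CPM in vehicle replicates 6 and 8, with summed levels of 1325 and 2915 CPM, whereas in the other 13 mice at most 2 were and the sum was 1.29 to 99.9 CPM. Skeletal muscle markers summed to 78540 CPM in BDE-47 replicate 6 and to 36.1 to 149 CPM elsewhere. Adipocyte markers (7 or 8 of 8 above 1 CPM in every mouse) summed to 408 and 1119 CPM in the 2 vehicle mice and to 3915 CPM in BDE-47 replicate 6. Without these 3 libraries the adipocyte sum was 7770 to 24200 CPM (median 20600) in vehicle and 6170 to 12600 CPM (median 11200) in BDE-47 mice, and luminal epithelial markers summed to 894 to 1870 CPM and 1560 to 3250 CPM. The libraries were kept, the comparisons are also given without the 3 (6 mice against 6), and the part of cell makeup in the results was not tested.

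**Figure D1:**
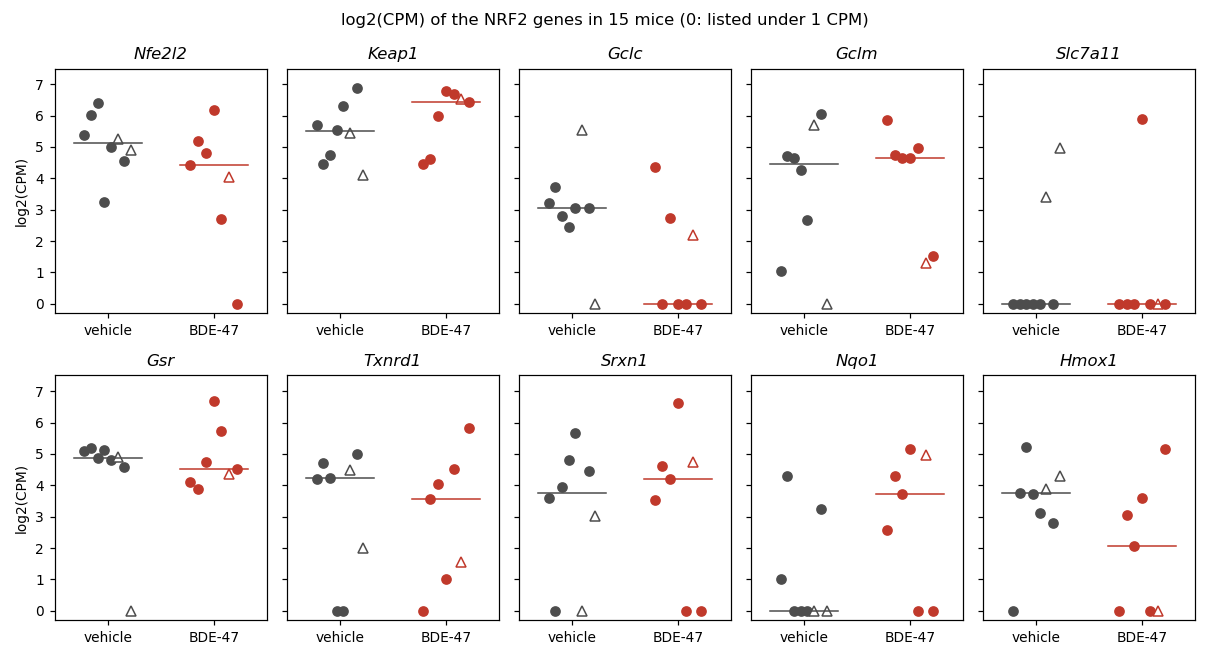
log2(CPM) (vertical axis, 0 where the gene is listed under 1 CPM) of each gene in the 8 vehicle and 7 BDE-47 mice. Each point is a mouse, the bar is the group median, and open triangles are the 3 libraries that stand apart (vehicle 6 and 8, BDE-47 6). The groups overlap for every gene, and Keap1 is the only gene with no mouse at 0.

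Nfe2l2 (chromosome 2, 75675513 to 75704663, GRCm38.p6), the transcription factor itself, had log2(CPM) values of 5.38, 6.02, 6.39, 3.25, 4.99, 5.24, 4.55 and 4.91 in vehicle mice 1 to 8. In BDE-47 mice 1 to 7 the values were 4.44, 5.20, 4.81, 6.19, 2.69, 4.04 and 0. Thus 5 of 7 BDE-47 mice lay under the vehicle mean, 1 of them listed at 0, but the groups overlapped over most of their range. The difference was -1.18 on the log2 scale (limma SE 0.77, 95% interval -2.74 to 0.38, exact p = 0.166), and -1.20 without the 3 libraries (exact p = 0.277). It was under 2-fold without BDE-47 replicate 7, the mouse listed at 0 (-0.53, exact p = 0.373), and as the log2 ratio of mean CPM (-0.63). The difference was also just under 2-fold without BDE-47 replicate 5 (-0.97) and without vehicle replicate 3 (-0.99). Keap1 (chromosome 9, 21229730 to 21239332), the cysteine-rich sensor and substrate adaptor of NRF2 degradation, was higher on average with BDE-47. Its vehicle values were 5.70, 4.45, 4.73, 5.54, 6.31, 5.46, 6.88 and 4.12, a mean of 5.40 ± 0.94 (SD, n = 8). Its BDE-47 values were 4.46, 4.61, 5.98, 6.77, 6.70, 6.54 and 6.42, a mean of 5.93 ± 0.98 (SD, n = 7). The 5 highest BDE-47 mice lay close together and above the vehicle mean, but vehicle replicate 7 was higher than any of them. The difference of 0.53 (limma SE 0.55, 95% interval -0.59 to 1.65, exact p = 0.296) was within the spread of each group, and it was 0.22 without the 3 libraries (exact p = 0.682).

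Of the subunits of 1 enzyme of glutathione synthesis, Gclc was lower on average with BDE-47 and Gclm had no steady direction. Glutamate-cysteine ligase, the rate-limiting enzyme, joins a catalytic subunit (Gclc, chromosome 9, 77754535 to 77794489) and a modifier subunit (Gclm, chromosome 3, 122245487 to 122267215). Gclc was 3.21, 3.71, 2.79, 2.44, 3.05, 5.54, 3.05 and 0 in vehicle mice 1 to 8 and 4.35, 0, 2.75, 0, 0, 2.18 and 0 in BDE-47 mice 1 to 7. It was thus above 1 CPM in 7 of 8 vehicle and 3 of 7 BDE-47 mice, and only BDE-47 replicate 1 exceeded the vehicle mean. The difference was -1.65 (limma SE 1.03, 95% interval -3.72 to 0.43, exact p = 0.0855). Single mice weighed on it. The exact p was 0.0193 without BDE-47 replicate 1 and 0.0274 without vehicle replicate 8. With any other single mouse left out the exact p was 0.0606 to 0.158. Without the 3 libraries it was 0.0498 (difference -1.86), while limma's adjusted p without the 3 was 0.968. Gclm was 1.06, 4.71, 4.66, 4.27, 2.67, 5.71, 6.05 and 0 in vehicle and 5.86, 4.74, 4.65, 4.66, 4.98, 1.29 and 1.54 in BDE-47 mice. Its medians, 4.46 and 4.66, were close, and the difference was 0.32 (limma SE 0.97, 95% interval -1.64 to 2.28, exact p = 0.764), with -0.20 when vehicle replicate 8 was left out and 0.50 without the 3 libraries (exact p = 0.595).

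The other glutathione genes supply and recycle the molecule. Slc7a11 (chromosome 3, 50364936 to 50499087), the cystine importer, was listed at 0 in 12 of 15 mice and was therefore not in the limma fit. It read 3.41 and 4.98 in vehicle replicates 6 and 8, the 2 libraries with B cell markers, and 5.89 in BDE-47 replicate 4. Outside those libraries it was under 1 CPM in every mouse, and no difference between the groups was detectable (exact p = 1.0). Gsr (chromosome 8, 33653238 to 33698162), which regenerates reduced glutathione, was 5.08, 5.20, 4.86, 5.13, 4.81, 4.91, 4.58 and 0 in vehicle and 4.10, 3.87, 4.74, 6.68, 5.74, 4.37 and 4.52 in BDE-47 mice. It was the steadiest of the targets in vehicle mice apart from replicate 8, with 7 values between 4.58 and 5.20, and more spread with BDE-47. Its difference of 0.54 (limma SE 0.75, 95% interval -0.98 to 2.06, exact p = 0.616) became -0.08 without vehicle replicate 8, and the groups were level without the 3 libraries (exact p = 1.0).

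In the thioredoxin branch, Txnrd1 (chromosome 10, 82833951 to 82897724), the cytosolic thioredoxin reductase, was 4.21, 4.72, 4.24, 0, 0, 4.50, 5.01 and 2.00 in vehicle and 0, 3.57, 4.04, 1.01, 4.53, 1.54 and 5.83 in BDE-47 mice. Srxn1 (chromosome 2, 152105524 to 152111376), sulfiredoxin, which repairs over-oxidized peroxiredoxins and whose window held the 3 matches above, was 3.58, 0, 3.94, 4.79, 5.66, 0, 4.45 and 3.02 in vehicle and 3.53, 4.62, 4.21, 6.63, 0, 4.73 and 0 in BDE-47 mice. Both genes covered about the same range in the groups, and each had its highest mouse with BDE-47. The difference was -0.15 for Txnrd1 (limma SE 1.10, 95% interval -2.38 to 2.07, exact p = 0.879). For Srxn1 it was 0.21 (limma SE 1.10, 95% interval -2.02 to 2.43, exact p = 0.855). Both signs turned without the 3 libraries, to 0.13 and -0.57. Intervals that wide do not show that the levels were alike.

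Nqo1 and Hmox1, the most used reporters of NRF2, were more than 2-fold apart between the groups by mean log2(CPM), in opposite directions. Nqo1 (chromosome 8, 107388225 to 107403205), the quinone reductase, was 1.01, 4.30, 0, 0, 0, 0, 3.24 and 0 in vehicle and 2.58, 4.28, 3.73, 5.17, 0, 4.98 and 0 in BDE-47 mice. It was above 1 CPM in 3 of 8 vehicle and 5 of 7 BDE-47 mice, and the highest vehicle mouse lay within the BDE-47 range. The difference of 1.89 (limma SE 1.03, 95% interval -0.20 to 3.98, exact p = 0.0841, limma adjusted p = 0.982) fell to 1.20 without the 3 libraries (exact p = 0.351). Leaving out vehicle replicate 2 gave an exact p of 0.0414, and leaving out BDE-47 replicate 5 or replicate 7 gave 0.043. With any other single mouse left out the exact p was 0.0781 to 0.177. Hmox1 (chromosome 8, 75093618 to 75100593), which breaks down haem and is also induced through other factors, was 0, 3.76, 5.23, 3.73, 3.12, 3.89, 2.79 and 4.28 in vehicle and 0, 3.05, 2.06, 3.58, 0, 0 and 5.15 in BDE-47 mice. It was above 1 CPM in 7 of 8 vehicle and 4 of 7 BDE-47 mice, and BDE-47 replicate 7, which listed Nqo1 and Nfe2l2 at 0, had the second highest Hmox1 level of all mice. The difference of -1.37 (limma SE 1.08, 95% interval -3.55 to 0.80, exact p = 0.16) was -0.80 without the 3 libraries (exact p = 0.461). As the log2 ratio of mean CPM it was -0.74, under 2-fold. The exact p was 0.0486 without BDE-47 replicate 7 and 0.053 to 0.286 with any other single mouse left out.

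**Figure D2:**
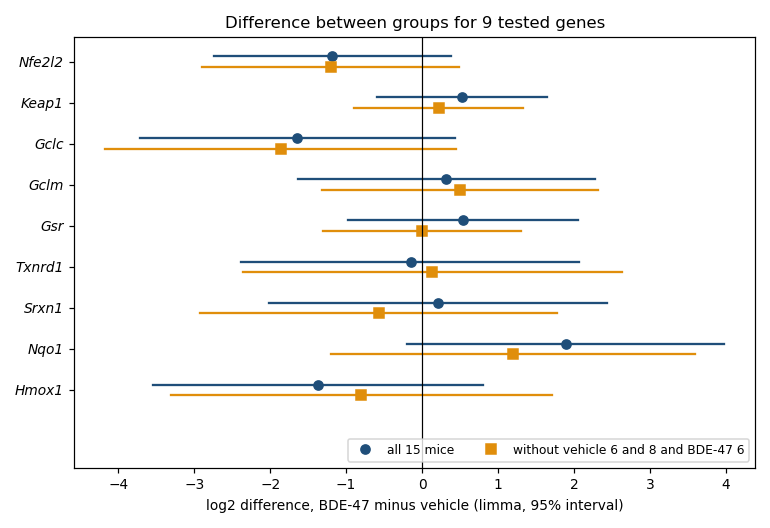
Difference in mean log2(CPM), BDE-47 minus vehicle (horizontal axis), for the 9 genes in the limma fit, with 95% intervals, for all 15 mice (blue circles) and without vehicle 6 and 8 and BDE-47 6 (orange squares). Every interval crosses 0, and the estimates run from -1.65 for Gclc to 1.89 for Nqo1 with all mice.

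Neighbours in the order of level mostly did not differ beyond their spread, while genes far apart in it did. In vehicle mice the mean log2(CPM) fell from Keap1 through Nfe2l2, Gsr, Gclm, Hmox1, Srxn1, Txnrd1 and Gclc to Nqo1 and Slc7a11, and each neighbour in that order differed by less than the SD of the paired difference. With BDE-47 the order was Keap1, Gsr, Gclm, Nfe2l2, Srxn1, Nqo1, Txnrd1, Hmox1, Gclc and Slc7a11. There the step from Keap1 to Gsr exceeded its spread (1.07 ± 0.77, SD, n = 7), and the other steps did not. The same held without the 3 libraries, where that step was 0.88 ± 0.65 (SD, n = 6) and was the only one beyond its spread in either group, though some neighbours changed places. Of all 45 pairs of genes, 14 were apart by more than the SD of the paired difference in vehicle and 14 in BDE-47 mice. In vehicle mice Nqo1 minus Keap1 was -4.33 with an SD of 1.89, and Slc7a11 minus Keap1 was -4.35 with an SD of 2.57. Libraries of this kind give about 1 read per transcript, so levels were compared without a correction for length. For none of the 10 genes were the groups apart without overlap, against 0.0105% of tested genes.

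Some mice stood out across several of the genes. BDE-47 replicate 4 had the highest value of all 15 mice for 4 of the 10 genes (Nqo1, Srxn1, Slc7a11 and Gsr), while it was the highest mouse for 8.43% of the tested genes, and only Gclc was listed at 0. It was also the library with the fewest genes above 1 CPM, 6932. BDE-47 replicates 5 and 7 were at the other end, with 5 of the 10 genes above 1 CPM. Both listed Nqo1, Srxn1, Gclc and Slc7a11 at 0, and yet replicate 7 had the highest Txnrd1 value of all mice. In vehicle mice 6 to 9 of the 10 genes were above the floor.

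**Figure D3:**
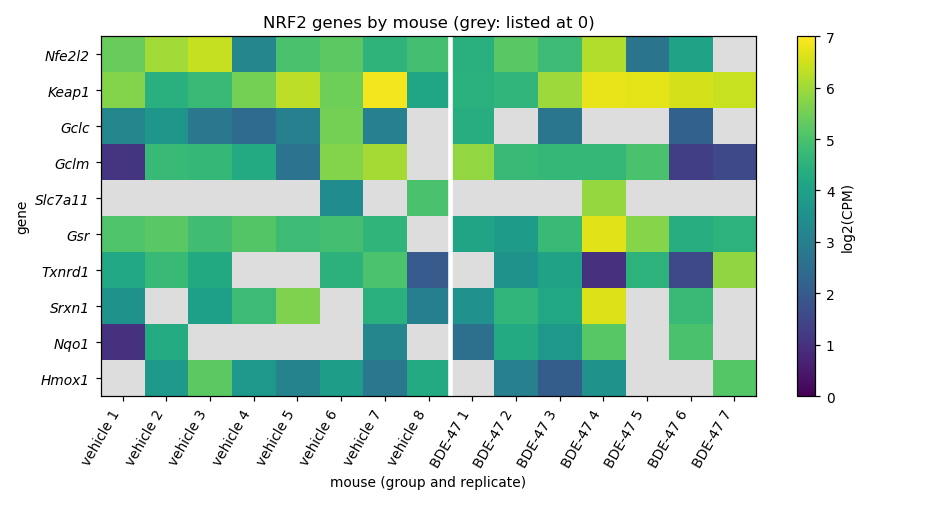
log2(CPM) by gene (rows) and mouse (columns, vehicle left and BDE-47 right of the white line), with values listed at 0 in grey. No mouse is high or low for all genes, and BDE-47 4 holds the highest value for 4 of them.

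Whether the genes moved together from mouse to mouse was asked with Pearson's r over the 15 mice. Among the 36 pairs of the 9 tested genes r ran from -0.64 to 0.56 with a median of 0.04, and 22 pairs (61.1%) were above 0. Over all pairs of tested genes the median was 0.03 and 54.1% were above 0. After the group means were subtracted, 20 of the 36 pairs were above 0, with a median of 0.07. Without the 3 libraries 19 pairs were above 0. With Slc7a11 included, 3 of 45 pairs had an unadjusted permutation p under 0.05, and 0 did after Benjamini-Hochberg adjustment over the 45.

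The pair with the lowest r joined the partners of the thioredoxin branch. For Txnrd1 and Srxn1 r was -0.64 (permutation p = 0.0104, adjusted 0.233) and Spearman's rho was -0.67 (permutation p = 0.00809), and r was -0.63 without the 3 libraries. Of the mice farthest from the median of Txnrd1, 3 tie at 0, and leaving out any 2 of them gave r of -0.69 to -0.57. For Gsr and Keap1 r was 0.56 (permutation p = 0.00834, adjusted 0.233) but rho was 0.32. Their r was 0.25 without the 2 farthest mice, 0.53 with the group means subtracted and 0.48 without the 3 libraries. Its size thus depended in part on which mice were kept. Gclm and Gsr had r of 0.51 (permutation p = 0.0426, adjusted 0.638), with 0.14 without the 2 farthest and -0.02 without the 3 libraries. The transcript of NRF2 and those of its targets had no relation past the test. Nfe2l2 had r above 0 with 7 of 8 targets, from -0.18 with Txnrd1 to 0.40 with Srxn1, and the lowest permutation p was 0.133. With the group means subtracted r was 0.64 for Nqo1 and 0.46 for Srxn1, and without the 3 libraries 0.51 and 0.53. These values were not tested. For Nqo1 rho over all mice was 0.26, and r was 0.34 without the 2 mice farthest from its median. BDE-47 replicate 7 listed both Nqo1 and Nfe2l2 at 0. For Srxn1 the value without the 2 mice farthest from its median ran from -0.19 to 0.74, depending on which of the mice tied at 0 were left out. Between Nfe2l2 and Keap1 r was -0.38 (permutation p = 0.167).

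**Figure D4:**
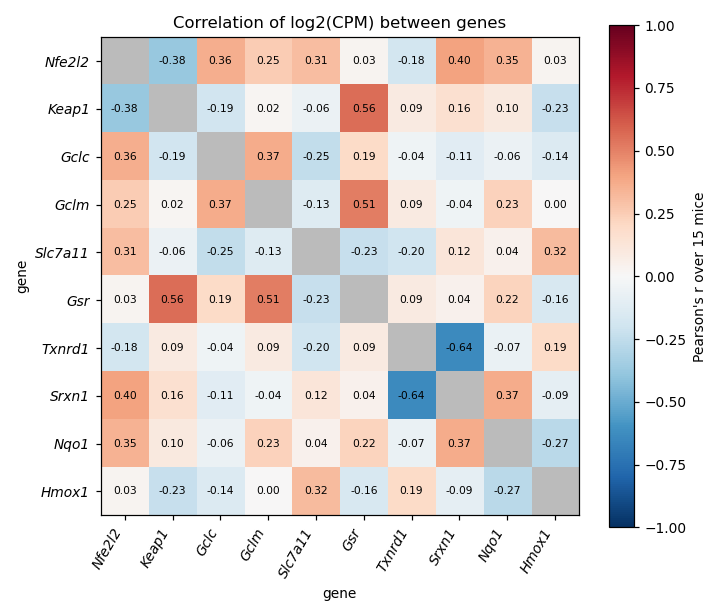
Pearson's r of log2(CPM) between each pair of the 10 genes over 15 mice (colour scale from -1 to 1, value printed in each cell). Most cells are pale, and the extremes are -0.64 for Txnrd1 with Srxn1 and 0.56 for Gsr with Keap1.

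The tested genes most like Nqo1 across the 15 mice were Acyp1 (r = 0.83, rho = 0.85), Psmd13 (r = 0.80, rho = 0.81) and Clpb (r = 0.79, rho = 0.81). For Nfe2l2 they were Chuk (r = 0.93, rho = 0.82), Actr1a (r = 0.88, rho = 0.62) and Sec11a (r = 0.87, rho = 0.61). Acyp1 was above 1 CPM in 12 of 15 mice, Psmd13 and Sec11a in 15, Clpb in 10, and Chuk and Actr1a in 14. Nqo1 was above it in 8 mice and Nfe2l2 in 14, so values listed at 0 may weigh on these r. The NRF2 genes themselves were left out of this ranking, so it does not say how closely the targets followed Nqo1 or Nfe2l2. The genes named were the highest among the other tested genes and carry no test.

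Beyond the classic targets, 50 further genes of the pathway were set out by role, of which 43 were tested. With BDE-47 19 were higher and 24 lower, with a median difference of -0.13, and 4 (9.3%) were more than 2-fold higher and 3 (6.98%) more than 2-fold lower, against 13% and 13.2% of all tested genes. Without the 3 libraries 15 of the 43 were higher, and without vehicle replicates 6 and 8 alone 13. None was called by limma after adjustment, and 2 (4.65%) had an unadjusted p under 0.05, close to the share over all tested genes (4.66%). By the exact permutation test 1 of the 43 was under 0.05, Sesn2. The 4 more than 2-fold higher were Gsta4 (2.16, limma SE 1.11), Akr1b8 (1.28, SE 0.91), Gss (1.17, SE 1.05) and Fech (1.01, SE 1.06). Gsta4, a glutathione transferase, was above 1 CPM in 4 of 8 vehicle and 7 of 7 BDE-47 mice. Its exact permutation p was 0.0752, and its limma p was 0.0573 before and 0.982 after adjustment. The 3 more than 2-fold lower were Glrx, Sesn2 and Ces2g, given below. Among regulators and partners of NRF2 3 of 9 were higher (median -0.13), and the highest in level was Sqstm1, the autophagy receptor that sequesters KEAP1, with a difference of 0.21 (limma SE 0.44). Among genes of glutathione use 5 of 8 were higher (median 0.28). Mgst1, a membrane glutathione transferase and the highest of them in level, differed by 0.24 (limma SE 0.62). Glrx, a glutaredoxin that removes glutathione from proteins, was listed at 0 in 3 vehicle and 4 BDE-47 mice. It differed by -1.79 (limma SE 0.88, exact permutation p = 0.0654, limma p = 0.0481 before and 0.982 after adjustment).

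The other roles were divided in the same way. Among thioredoxin partners 2 of 6 were higher (median -0.22), and the peroxiredoxin Prdx1, the highest in level, differed by 0.23 (limma SE 0.34). Sesn2, a stress-induced sestrin, was above 1 CPM in 6 of 8 vehicle and 2 of 7 BDE-47 mice. Its difference was -1.30 (limma SE 0.67, exact permutation p = 0.0264, limma p = 0.0589 before and 0.982 after adjustment). Genes of NADPH supply, which feeds both branches, were higher in 4 of 6 (median 0.28), with 0.70 (limma SE 0.61) for the malic enzyme Me1, which adipocytes also express strongly. Of genes for haem and iron handling 1 of 6 was higher (median -0.22), and the ferritin heavy chain Fth1, the highest of all 50, differed by -0.15 (limma SE 0.28). Xenobiotic enzymes and transporters split into 4 higher and 4 lower (median 0.06), and their highest, the carbonyl reductase Cbr1, differed by 0.68 (limma SE 0.80). Ces2g, a carboxylesterase, was above 1 CPM in 6 of 8 vehicle and 2 of 7 BDE-47 mice. Its difference was -2.34 (limma SE 1.07, exact permutation p = 0.0502, limma p = 0.0345 before and 0.982 after adjustment).

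**Figure D5:**
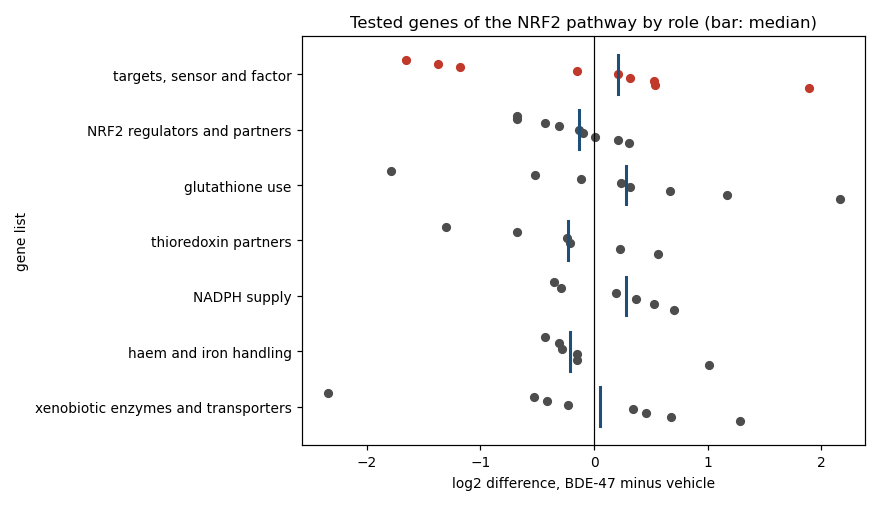
Difference in mean log2(CPM), BDE-47 minus vehicle (horizontal axis), for the 9 tested NRF2 genes (red) and 43 tested pathway genes (grey) by role, each point a gene and each bar the median of its list. Points lie on both sides of 0 in every list, from -2.34 for Ces2g to 2.16 for Gsta4, a glutathione transferase.

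The size of change that could have been seen bears on the weight of these results. Data were simulated from the mean and SD of each tested gene over all mice, with values drawn independently from a normal distribution. In the BDE-47 group 200 genes taken at random were raised, and negative values were set to 0. There limma recovered 0.5% of the 200 genes with a log2 change of 1, 7.5% with a change of 2 and 48.5% with a change of 3. Falls, genes split between 0 and high values, and the 3 libraries that stood apart were not simulated. The shares are therefore only a rough guide for the NRF2 genes. With the intervals above, a 2-fold change in either direction lay within the 95% interval for Gclm, Txnrd1 and Srxn1, a 2-fold rise lay outside it for Hmox1, Gclc and Nfe2l2, and a 2-fold fall lay outside it for Nqo1, Gsr and Keap1. Without the 3 libraries the intervals of Hmox1 (-3.30 to 1.71), Nqo1 (-1.20 to 3.60) and Gsr (-1.31 to 1.31) took in those changes too.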

How the data were processed

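Total RNA from 15 mice was converted to 3′ libraries (Lexogen QuantSeq 3′ FWD) and mapped by the authors with STAR 2.5.3a to the RefSeq mouse genome (GRCm38 per the labels). The values the authors deposited are log2 of CPM, with genes under 1 CPM listed at 0. That the values are logarithms and have a floor was found in the files. Each value under 100 CPM was a whole number of reads (tolerance 0.02), which gave the depth. Samples were grouped by their labels. Of 52636 entries, 110 that repeated a name were dropped, keeping the entry with the highest mean. Because the values are log2, no count test was run. All genes reaching 1 CPM in 7 or more mice were fitted with limma 3.58.1 (R 4.3.3, trend in the prior variance) and adjusted by Benjamini-Hochberg, called at 0.05. Single genes were also compared by the exact permutation test over 6435 splits, two-sided, with a smallest p of 0.000155. Correlations used 100000 permutations. The step was tested on simulated data.

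The members and lists were chosen with earlier results of these data known. Named genes were the 10 members, and in each pathway list the gene highest in level and those with an unadjusted limma p under 0.05. The 3 tested genes outside the 10 members that were most like Nqo1 and Nfe2l2 were also named. Gpx4, Gsta4, Akr1b8, Gss, Fech and Sesn2 were named after their values were seen. The study's xenograft covariate was not used here. Promoters came from RefSeq. Alternatives were other pseudocounts, size factors, filters and prior variance, a replicate block, a detection covariate, the ratio of mean CPM, and left-out mice. Whether mice of a group shared a cage or day is not given. The p-values set differences against the spread between these mice, taken as independent, and could be wrong if they did. Python 3.11.15, numpy 2.4.6, scipy 1.17.1, pandas 2.3.3 and matplotlib 3.10.9 were used.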

Additional observations from a re-analysis of the deposited data

Results flagged for a closer look

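In 20 groups of values (10 genes in each of the 2 treatments), 3 had a sample far from the others by Dixon's criterion. Chance gives about 1 in 20 groups where values are normally distributed, a rate that does not hold for values at a floor. Hmox1 was listed at 0 in vehicle replicate 1, with the other 7 vehicle mice between 2.79 and 5.23 log2(CPM). Gsr was listed at 0 in vehicle replicate 8, one of the libraries with B cell markers, with the others between 4.58 and 5.20. Slc7a11 was 5.89 in BDE-47 replicate 4 and listed at 0 in the other 6 BDE-47 mice, a pattern that meets the criterion by construction.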

How the results depend on the processing

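Keap1 stayed higher and Nfe2l2 lower with BDE-47 under all 23 alternatives, and Nqo1 higher (1.20 to 3.02) and Hmox1 (-2.38 to -0.74) and Gclc (-3.14 to -1.28) lower, while the other 5 genes changed sign under at least 1. Over the fits that lacked 1 mouse the difference ran from -0.20 to 0.76 for Gclm, -0.64 to 0.33 for Txnrd1, -0.33 to 0.77 for Srxn1, -1.05 to 0.35 for Slc7a11 and -0.08 to 0.70 for Gsr. The log2 ratio of mean CPM gave -0.01 for Gclm, 0.08 for Txnrd1 and 0.68 for Slc7a11, and log2(CPM + 0.1) gave 0.21 for Txnrd1. Without vehicle replicates 6 and 8 the difference was -0.35 for Srxn1, 0.84 for Slc7a11 and -0.08 for Gsr, and without BDE-47 replicate 6 as well, chosen after seeing the data, 0.13 for Txnrd1, -0.57 for Srxn1, 0.98 for Slc7a11 and -0.00 for Gsr. NRF2 genes with an exact p under 0.05 numbered 0 with all mice, 0 to 2 with a mouse left out and 1 (Gclc) without the 2 vehicle mice or without the 3 libraries. Of the 9 tested genes 5 were higher with all mice, 3 to 6 with a mouse left out (3 without vehicle replicate 8) and 3 without the 2 vehicle mice. limma called 0 genes except without the 3 libraries, where it called 2 of all genes (Wfdc18, 1.78, adjusted p = 0.0312, and Chchd2, -1.48, adjusted p = 0.0494), no NRF2 gene among them. Pathway genes with an unadjusted p under 0.05 numbered 2 with all mice, 0 to 3 with a mouse left out, and 1 with log2(CPM + 1), without the 2 vehicle mice or without the 3 libraries. The cause of these changes was not tested.

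Vehicle and BDE-47 mice share replicate numbers, and the labels do not say whether these mark pairs. The r of same-numbered mice was small (-0.02 to 0.05, none of 7 pairs over 0.1), but 4 of 7 were best with their own number. These values do not settle whether the mice were paired. The main comparison took the mice as unpaired, and a replicate block was run as an alternative. With a replicate block Gclm was -0.20, Gsr -0.08, 3 of 9 genes were higher and 0 pathway genes had an unadjusted p under 0.05. The floor of the deposited values limits what can be said of levels under 1 CPM.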

Other observations

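Some pairs of genes stood out only after their values were seen and are given as values without a test. Nqo1 and Srxn1 tracked each other in BDE-47 mice, where both were listed at 0 in replicates 5 and 7 and Srxn1 minus Nqo1 on the log2 scale was -0.24 to 1.46 (SD 0.60, the lowest of the 45 pairs of the 10 genes). In vehicle mice the same difference ran from -4.30 to 5.66 (SD 3.17, rank 40 of 45 from the lowest). The modifier minus the catalytic subunit of glutamate-cysteine ligase, Gclm minus Gclc, was 0.67 ± 1.61 (SD, n = 8) in vehicle and 2.63 ± 2.22 (SD, n = 7) in BDE-47 mice, and above 0 in 5 of 8 and 6 of 7 mice. Without the 3 libraries that stood apart the groups differed in it by 2.36. Gclc was listed at 0 in BDE-47 replicates 2, 4, 5 and 7, so there the difference is only the level of Gclm. Both genes were listed at 0 in vehicle replicate 8. Keap1 minus Nfe2l2 was 0.31 ± 1.59 (SD, n = 8) in vehicle and 2.01 ± 2.49 (SD, n = 7) in BDE-47 mice, the highest value, 6.42, coming from BDE-47 replicate 7, which listed Nfe2l2 at 0.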
